A study of Homo sapiens with 54 samples.

Results

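The microRNA genes measured here are the 173 genes, of 18417 on the array with a probe set of 1 symbol, whose symbol is MIR followed by a number or MIRLET7. Host genes with symbols ending in HG were left out, each gene had 1 probe set, and no filter on low signal was applied. A microRNA gene is transcribed into a long primary RNA, which is cut to a hairpin and then to a mature strand that an Argonaute protein carries to target messages. Bases 2 to 8 of the mature strand, the seed, pair with the target. Many microRNA genes sit inside introns of protein-coding hosts, and neighbouring ones are often cut from 1 shared primary RNA.

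The data come from H4 cells, a human neuroglioma line that the labels class as glioneuronal. The cells were transfected for 48 h with 1 of 9 molecules and measured on Affymetrix Human Gene 1.0 ST arrays. Of these, 4 were mimics of the miR-15/107 group (miR-103 and miR-107, miR-16 and miR-195). Mimics of miR-320 and miR-15b* and 2 altered forms of miR-107, named miR-107-mut1 and miR-107-mut2, were also used, each set against a commercial negative control RNA. From each of 3 cultures per molecule, RNA bound by an anti-Argonaute antibody (here IP) and total RNA of the lysate were hybridised separately, giving 54 arrays in 18 groups of 3. All cultures carried a transfected RNA, no array of an untransfected culture was analysed here, and what letters were altered was not used here. The sample titles write miR-15b where the design text writes miR-15b*. Of 11 glial and neural markers, 4 lay above the median gene in the lysates: VIM, SOX2, ENO2 and MAP2, at 12.56, 10.27, 9.77 and 8.09 log2 units. The other 7 were below it, with OLIG2 at 7.20, GFAP at 6.69 and S100B lowest at 4.47. The 7 markers of leukocytes, blood and endothelium were all below the median gene, between 3.60 (PTPRC) and 6.38 (PECAM1), and so overlapped the lower glial markers.

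The mature strands that name the transfected molecules, other than miR-320 and the altered forms, are shown first. They are given as RefSeq lists them, with the seed in capitals. The first pair share 1 seed and the next pair share another, which starts 1 base earlier in the same run of letters. The last is the RefSeq strand of the opposite arm of the MIR15B hairpin, which the older star name denotes.
miR-103a-3p: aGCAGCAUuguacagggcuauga
miR-107: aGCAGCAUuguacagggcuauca
miR-16-5p: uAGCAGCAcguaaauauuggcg
miR-195-5p: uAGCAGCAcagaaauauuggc
miR-15b-3p: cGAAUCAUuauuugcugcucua

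The next 6 strands are those of MIR21, which was called in the most lysate comparisons, and of 2 loci with several called genes each. They are shown because miR-221 and miR-222 share a seed and a locus, while miR-23a, miR-27a and miR-24 share a locus but have different seeds.
miR-21-5p: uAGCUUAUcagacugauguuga
miR-221-3p: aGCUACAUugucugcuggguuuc
miR-222-3p: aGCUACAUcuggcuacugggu
miR-23a-3p: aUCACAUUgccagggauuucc
miR-27a-3p: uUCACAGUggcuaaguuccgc
miR-24-3p: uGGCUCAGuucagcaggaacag

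The hairpins of the 2 genes with the largest IP signal relative to lysate follow, with both annotated mature arms in capitals. MIR182 lies at chr7:129770383-129770492 on the minus strand and MIR99B at chr19:51692612-51692681 on the plus strand, inside the gene SPACA6 (RefSeq, GRCh38.p14, as for all positions here).
MIR182: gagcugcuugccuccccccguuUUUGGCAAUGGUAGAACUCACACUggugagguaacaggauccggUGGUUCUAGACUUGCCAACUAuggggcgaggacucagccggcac
MIR99B: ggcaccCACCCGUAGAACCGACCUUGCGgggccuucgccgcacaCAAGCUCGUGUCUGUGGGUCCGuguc

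A probe set over a hairpin can detect the primary RNA, the hairpin or the mature strand, and these cannot be told apart in the values. Nor can fewer cells carrying an RNA and less of it per cell be told apart in these bulk samples. The microRNA genes gave low signal for the array: their median was 2.34 log2 units on IP arrays and 4.91 on lysate arrays, against 3.61 and 7.71 for all genes. Of the 173, 39 lay above the median gene in the IP and 9 did so in lysates, while 153 fell in the lowest 40% of genes by lysate signal. Gene means ran between 1.51 and 7.56 in the IP and between 2.39 and 9.28 in the lysate. Within a group the replicates of a microRNA gene differed by a median SD of 0.22 in the IP and 0.15 in the lysate, against 0.24 and 0.15 for all genes. Over all genes, replicate arrays correlated at 0.831 to 0.977 in the IP and 0.947 to 0.996 in the lysate. Replicate 1 of the miR-15b* IP arrays stood apart, with a median correlation of 0.858 to the other IP arrays, and IP results are also given without it where they change. Among lysate arrays, the second arrays of miR-15b*, miR-16 and miR-103 were the least like the others, with medians of 0.942, 0.951 and 0.966, and the next lowest was at 0.977. The array-wide mean was 3.68 to 3.97 on IP arrays and 7.71 to 7.77 on lysate arrays.

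Across genes, signal went with the base composition of the hairpin. For the 155 genes with a hairpin in RefSeq, Spearman's rho between hairpin GC content and mean signal was 0.756 in the IP and 0.770 in the lysate, as the plot of signal against GC content shows. The 22 genes with at least 60% GC had median signals of 5.07 (IP) and 7.27 (lysate), while the 20 genes under 40% had 1.68 and 3.15. These correlations are across genes, which share arrays and are not independent replicates. Signals of different probe sets are not read as amounts of different microRNAs, and the tests below compare each gene with itself.

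**Figure D1:**
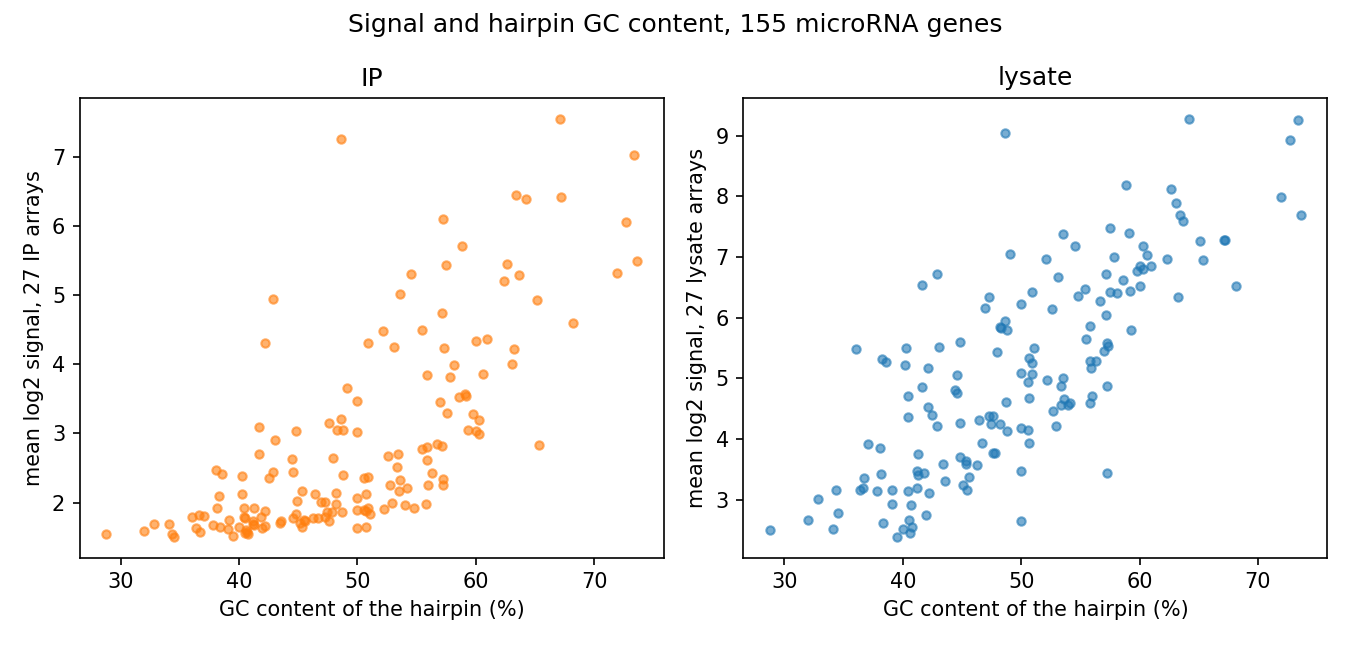
Mean log2 signal over 27 IP arrays (left) and 27 lysate arrays (right) against the GC content of the RefSeq hairpin, in percent. Each point is 1 of 155 microRNA genes, and signal is higher at higher GC content in both fractions, with a rho of 0.756 for IP arrays and 0.770 for lysate arrays.

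Whether each transfection changed the cells' own microRNA genes was examined first in the lysates, against the negative control. The miR-103 lysates had the most changes: 16 of 173 microRNA genes rose and 0 fell. MIR21, MIR196A2, MIR222 and MIR24-2 rose with all 4 molecules of the miR-15/107 group. MIR221 and MIR23A passed with 3 of these molecules and MIR27A with 2. All 49 changes in the 8 comparisons, in 25 different genes, were rises. After cyclic loess of the arrays 1 gene was also called lower with miR-16 (MIR125B1, -0.39) and 1 with miR-107-mut2 (MIR30A, -0.38), both named after their values were seen. Changes were called at a limma p-value, Benjamini-Hochberg adjusted over 18417 genes, under 0.05, and the 8 comparisons share the same 3 negative control arrays.

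With miR-103, the 16 called genes were 9.25% of the microRNA genes, where 14.5% of all genes were called, 6.69% higher and 7.8% lower. With miR-107, 9 rose, where 11.3% of all genes were called, 4.59% higher and 6.72% lower. With miR-16, 8 rose, beside 12.7% of all genes called (6.5% higher, 6.17% lower), and with miR-195, 5 rose, beside 10.5% (4.76% higher, 5.7% lower). The miR-107-mut2 lysates had 9 rises, beside 11.2% of all genes called (5.01% higher, 6.16% lower). With miR-15b*, MIR96 and MIR26A2 rose, 2 genes beside 6.1% of all genes called (2.48% higher, 3.62% lower). No microRNA gene was called by limma with miR-320, where 1.94% of all genes were, or with miR-107-mut1, where 5.78% were (0.863% higher and 1.08% lower with miR-320, 2.22% and 3.56% with miR-107-mut1). At an unadjusted p under 0.05 those counts were 6 and 8. Counting rises alone, the share of microRNA genes was above that of all genes with miR-103 (9.25% and 6.69%), close to it with miR-107 (5.20% and 4.59%) and miR-107-mut2 (5.20% and 5.01%), and below it with miR-16 (4.62% and 6.5%), miR-195 (2.89% and 4.76%) and miR-15b* (1.16% and 2.48%). Without the second lysate arrays of miR-103 and miR-16, 4 genes rose with miR-103 and 5 with miR-15b*, and with miR-16 3 rose and MIR125B1 fell. Without those arrays and the second miR-15b* array, an alternative chosen after the data were seen, 12 rose with miR-103, 15 with miR-107, 4 with miR-16, 10 with miR-195, 2 with miR-15b*, 3 with miR-107-mut1, 25 with miR-107-mut2 and 0 with miR-320. In that fit MIR25 fell with miR-107 and miR-16, MIR125B1 with miR-16 and MIR186 with miR-107-mut2. With the replicate number as a block the counts were 30 with miR-103, 5 with miR-15b* and 15 with miR-107-mut2, all rises.

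Most microRNA genes lay slightly above the negative control without passing the test. With miR-103, 149 of 173 had a positive change, with a median of 0.21 log2 units against 0.06 over all genes. With miR-107-mut2, 152 were positive, with a median of 0.19 against 0.07. With miR-107-mut1, 128 were positive, with a median of 0.08 against 0.02, and with miR-320, 87 were positive, with a median near 0. The plot of changes by transfection shows the called genes above this shared offset.

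**Figure D2:**
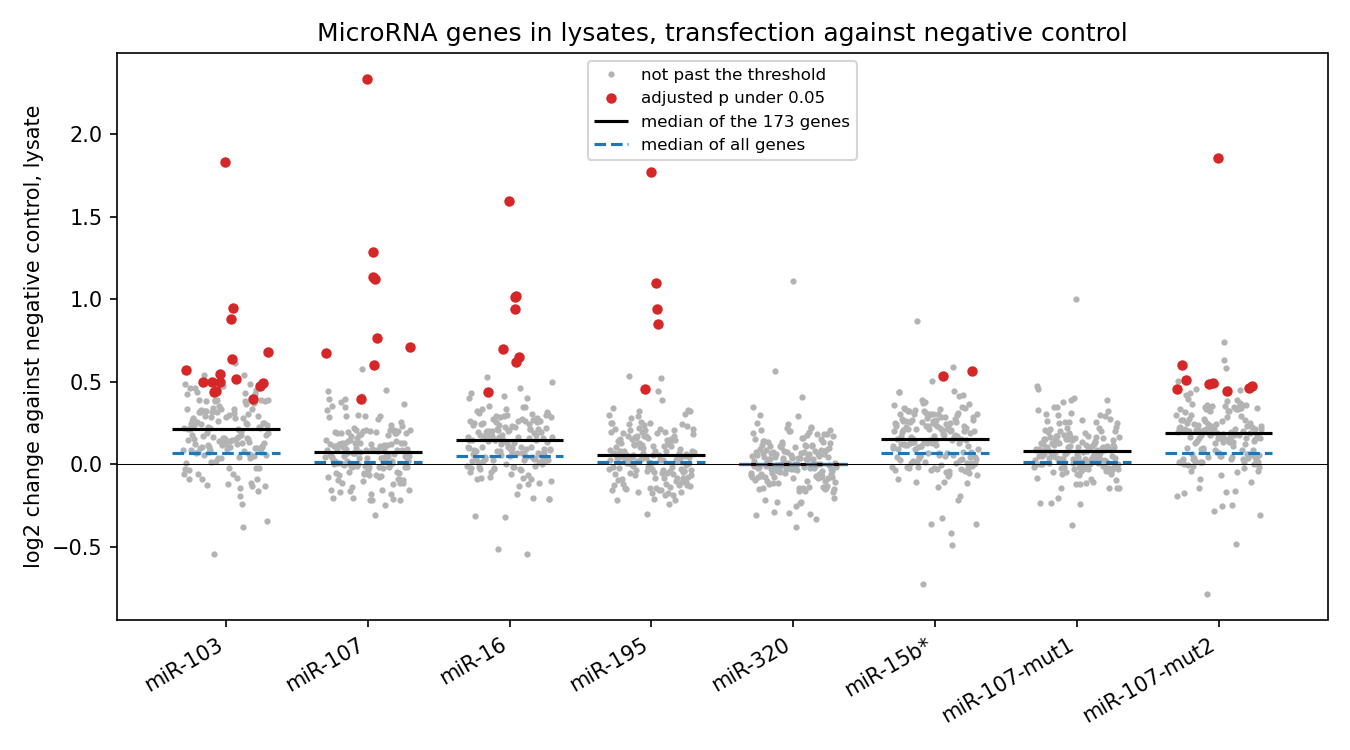
Log2 change against the negative control in lysates for each of 173 microRNA genes (points), by transfection. Red points passed an adjusted p under 0.05, all of them above 0, and lines mark the median of the 173 genes (solid) and of all 18417 genes (dashed).

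MIR21, an oncogenic microRNA gene that is highly expressed in gliomas, had the largest change of the microRNA genes in each of the 5 lysate comparisons in which it was called. Its log2 signal in lysates was 9.56, 9.19 and 10.01 with miR-103, against 8.52, 7.53 and 7.21 with the negative control. With miR-107 it was 9.75, 9.92 and 10.60, and with miR-16 it was 9.75, 8.43 and 9.86. With miR-195 it was 9.70, 9.12 and 9.76. The miR-103, miR-107 and miR-195 arrays all lay above the 3 control arrays, while the second miR-16 array lay below the first control array.

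With miR-107-mut2, MIR21 measured 9.59, 9.63 and 9.61, again above all controls. With miR-320 it was 9.06, 8.43 and 9.11, with miR-107-mut1 9.43, 8.53 and 8.30, and with miR-15b* 8.64, 7.43 and 7.70, so those groups overlapped the controls. The change was largest with miR-107, 5.05-fold (log2 2.34 ± 0.39 SE, adjusted p = 0.000208 by limma). The change was 3.57-fold with miR-103 (adjusted p = 0.00245), 3.02-fold with miR-16 (adjusted p = 0.00793), 3.42-fold with miR-195 (adjusted p = 0.00354) and 3.62-fold with miR-107-mut2 (adjusted p = 0.00255).

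The control arrays themselves differed by more than 1 log2 unit, since the first lay at 8.52 and the third at 7.21. Leaving out any 1 array kept the MIR21 call with miR-103, miR-107, miR-195 and miR-107-mut2. The call with miR-16 was lost without the third control array (adjusted p = 0.0632) and with only the compared arrays fitted (adjusted p = 0.113). MIR21 changed by 1.11 with miR-320 and 1.00 with miR-107-mut1, which did not pass (adjusted p = 0.214 and 0.174), and by 0.17 with miR-15b*.

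MIR21 lies at chr17:59841266-59841337 on the plus strand, within the annotated span of VMP1, which encodes a membrane protein of autophagy. VMP1 passed in none of the 8 lysate comparisons. Its changes ran between -0.19 with miR-16 and 0.14 with miR-107-mut1 and miR-320, so in the 5 comparisons in which MIR21 rose the host probe set moved by at most 0.19 in either direction. In the IP, MIR21 passed in none of the comparisons against the negative control. Its values there were 8.76, 8.38 and 7.81 with miR-107-mut2, 8.61, 7.64 and 7.91 with miR-103, and 7.66, 6.57 and 7.12 with the negative control. The largest IP change was 1.20 ± 0.38 with miR-107-mut2 (adjusted p = 0.383).

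MIR221 and MIR222, which lie within 1 kb of each other on the X chromosome at chrX:45746157-45746266 and chrX:45747015-45747124 (minus strand), encode strands with a shared seed that are known to target the cell-cycle inhibitor p27. MIR222 read 5.22, 6.01 and 5.77 in miR-107 lysates, against 4.53, 4.45 and 4.63 in negative control lysates, with no overlap. In miR-103 lysates it read 5.25, 5.81 and 5.19, in miR-16 lysates 4.86, 5.81 and 5.76, and in miR-195 lysates 5.09, 6.01 and 5.31, all above the controls. It rose by 1.13 ± 0.26 with miR-107 (adjusted p = 0.00384), and by 0.88 to 0.94 with miR-103, miR-16 and miR-195. MIR221 read 6.18, 7.45 and 7.31 in miR-107 lysates and 5.48, 5.76 and 5.85 in negative control lysates. It rose by 1.28 ± 0.32 with miR-107 and also passed with miR-16 and miR-195, and its 0.87 with miR-103 did not (adjusted p = 0.0738). Neither gene passed with miR-320, miR-15b*, miR-107-mut1 or miR-107-mut2, where MIR222 changed by -0.14, 0.33, 0.13 and 0.63.

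MIR23A, MIR27A and MIR24-2 form 1 cluster on chromosome 19, minus strand, at chr19:13836587-13836659, chr19:13836440-13836517 and chr19:13836287-13836359, and are known to be cut from 1 primary RNA. MIR24-2 read 6.82, 6.89 and 6.91 in miR-103 lysates, 7.44, 6.84 and 6.84 in miR-107 lysates, and 6.16, 5.53 and 6.08 in negative control lysates. It also read 7.09, 7.02 and 6.70 in miR-16 lysates and 6.72, 6.86 and 6.73 in miR-195 lysates, so the 12 arrays of these 4 molecules all lay above the 3 controls. The rises were 0.95 with miR-103, 1.12 with miR-107, 1.02 with miR-16 and 0.85 with miR-195, each ± 0.27 SE. MIR23A rose by 0.60 to 0.64 with miR-103, miR-107 and miR-16, and MIR27A by 0.76 with miR-107 and 0.65 with miR-16. With miR-195, MIR23A changed by 0.44 and MIR27A by 0.52, without passing. With miR-320, miR-15b* and miR-107-mut1 the 3 genes stayed between -0.33 and 0.16, none passing. The plot of the 6 genes by transfection shows both clusters side by side with MIR21.

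**Figure D3:**
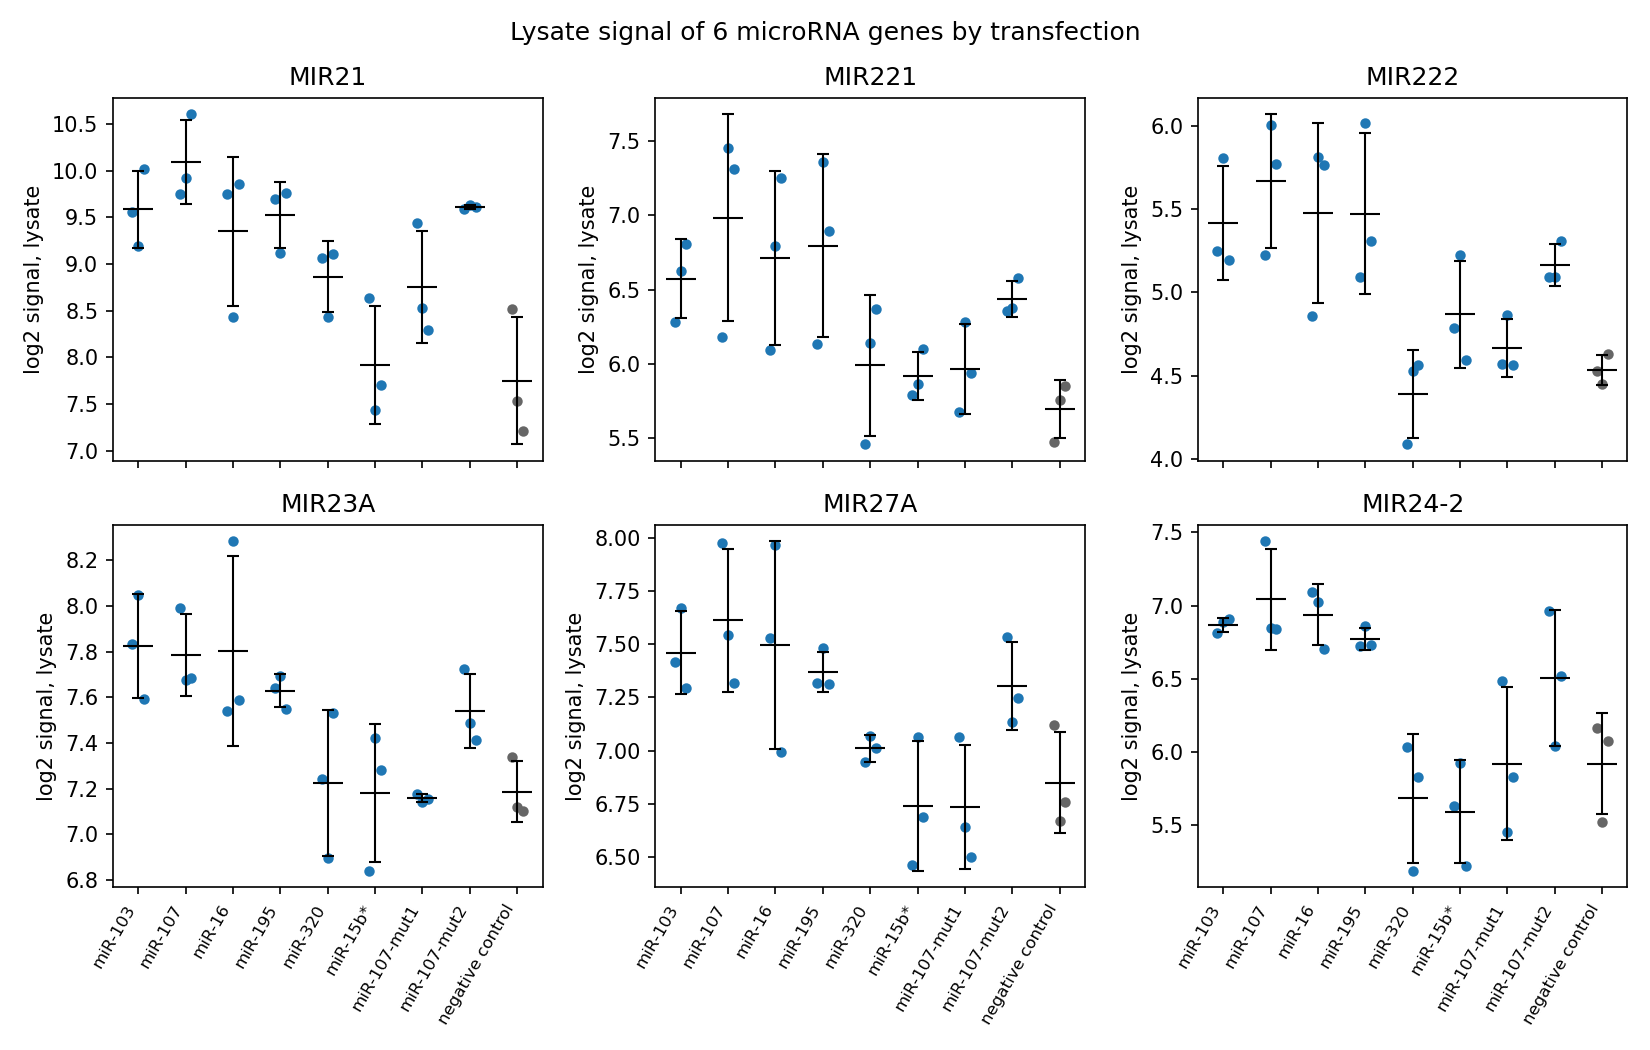
Log2 signal in lysates of MIR21, MIR221, MIR222, MIR23A, MIR27A and MIR24-2 by transfection, 1 point per array, with the mean and SD of 3 arrays (grey points are the negative control). The 4 molecules of the miR-15/107 group sit above the negative control in mean for all 6 genes, MIR21 most, and miR-15b* and miR-107-mut1 lie closer to it. With miR-107-mut2, MIR21 was also called higher, and MIR221, MIR222 and MIR24-2 lay above the control in mean without passing. None of the 6 genes passed with miR-320.

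MIR196A2, in the HOXC region, rose by 0.50 with miR-103, 0.39 with miR-107, 0.70 with miR-16 and 0.46 with miR-195, each ± 0.12 SE. MIR100, whose strand shares its seed with that of MIR99B, rose with miR-107 and miR-107-mut2, by 0.68 and 0.45. MIRLET7G, a let-7 gene, rose by 0.68 with miR-103 and 0.71 with miR-107, the 1 called gene of 10 let-7 genes on the array in each case. MIR191, MIR197 and MIR7-3 passed with both miR-103 and miR-107-mut2, by 0.44 to 0.54, and MIR96 with miR-103 and miR-15b*, by 0.49 and 0.56. The 12 genes called in 1 comparison changed by 0.40 to 0.60, among them MIR182, MIR185 and MIR103A2 with miR-103 and the brain microRNA genes MIR124-2 and MIR128-1 with miR-107-mut2. Of 12 neural and glial microRNA genes, 3 rose with miR-107-mut2 (MIR21, MIR124-2 and MIR128-1), and MIR21 alone with the 4 mimics of the miR-15/107 group. Of all genes, 5.01% rose with miR-107-mut2 and 4.59% to 6.69% with those 4.

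The calls rested on few arrays. Of the 49, 7 were kept in each of the 6 fits that left out 1 array of the compared groups: MIR21 with miR-103, miR-107, miR-195 and miR-107-mut2, MIR100 and MIR222 with miR-107, and MIR196A2 with miR-16. Leaving out replicate 1, 2 or 3 of the negative control, which all comparisons share, lost 18, 32 and 28 of the 49.

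Whether the altered molecule miR-107-mut1 differed from miR-107 was tested directly, in a comparison added after the results above were seen. In lysates, 7 microRNA genes were higher with miR-107 than with miR-107-mut1 and 0 were lower, where 9.74% of all genes were called (4.6% higher, 5.14% lower). MIR130B was called lower after cyclic loess (-0.35, adjusted p = 0.0327), with only the compared arrays fitted (-0.36, adjusted p = 0.0391) and without the lysate arrays that stood apart (adjusted p = 0.0160). The 7 higher genes were MIR21, MIR222, MIR23A, MIR27A, MIR24-2, MIR100 and MIRLET7G, and each of them was also called with miR-107 against the negative control. Both comparisons use the same miR-107 arrays, so these calls are not independent. MIR24-2 read 7.44, 6.84 and 6.84 with miR-107 and 6.49, 5.45 and 5.83 with miR-107-mut1, and was 2.17-fold higher (1.12 ± 0.27, adjusted p = 0.00645). MIR21 was 2.52-fold higher (1.34 ± 0.39, adjusted p = 0.0314), MIR222 2.00-fold (adjusted p = 0.0126) and MIR27A 1.84-fold (adjusted p = 0.00768). The median change over the 173 genes was near 0 here. The MIR100 call held without any 1 array of the 2 groups, and the other 6 calls did not: the count was 3 without miR-107 replicate 2, 4 without miR-107 replicate 3, 4 without miR-107-mut1 replicate 2 and 2 without miR-107-mut1 replicate 3.

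Between miR-107 and miR-107-mut2 no gene of all 18417 was called by limma in lysates (0%), and 15 microRNA genes had an unadjusted p under 0.05. MIR128-1 passed, lower with miR-107 (-0.49), only without the 3 lysate arrays that stood apart. MIR21 differed by 0.48 ± 0.39, MIR222 by 0.50 ± 0.26 and MIR24-2 by 0.53 ± 0.27, all higher with miR-107 without passing. Between the miR-103 and miR-107 lysates together and the miR-16 and miR-195 lysates together, whose seeds are offset by 1 base, 0 microRNA genes were called by limma, beside 6.69% of all genes (2.36% higher, 4.33% lower), and 14 had an unadjusted p under 0.05. The count was 1 without the 3 arrays that stood apart. MIR21 differed there by 0.40 ± 0.28, and the other 5 genes of the plot by 0.02 to 0.10.

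In the IP, no microRNA gene was called by limma against the negative control with any of the 8 molecules. The shares of all genes called were 0.977% with miR-103, 2.2% with miR-107, 0.608% with miR-16, 0.348% with miR-195, 1.28% with miR-320, 0.109% with miR-15b*, 0.434% with miR-107-mut1 and 0.19% with miR-107-mut2. At an unadjusted p under 0.05 the microRNA genes numbered 16, 28, 9, 9, 2, 17, 1 and 7 in the same order. The count was also 0 between miR-103 with miR-107 and miR-16 with miR-195, beside 0.201% of all genes and 3 microRNA genes at an unadjusted p under 0.05.

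With the replicate number as a block, 4 microRNA genes were called in the miR-103 IP, 14 in the miR-107 IP, 1 in the miR-16 IP and 1 in the miR-195 IP. The 14 with miR-107 were all higher, by 0.57 to 0.90, and included MIR150, MIR185, MIR412 and MIRLET7E. With miR-103, MIR124-3, MIR150 and MIR212 were higher and MIRLET7C lower (-1.33 ± 0.34). MIR188 was higher with miR-16 and MIRLET7C lower with miR-195. Without the miR-15b* array that stood apart, MIR412 and MIRLET7E passed with miR-107 and the other counts against the control stayed at 0. Without miR-15b* replicate 3, which leaves that array as 1 of 2, 15 microRNA genes were called with miR-15b*, 14 of them higher. Without negative control replicate 2, MIRLET7C passed with miR-103, miR-195 and miR-320, in each case lower.

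Against miR-107-mut1, the miR-107 IP had 2 higher microRNA genes, MIR103A2 and MIR208A, where 3.01% of all genes were called (0.445% higher, 2.56% lower). MIR103A2 read 2.60, 2.53 and 2.02 with miR-107, against 1.83, 1.60 and 1.70 with miR-107-mut1 (0.67 ± 0.18, adjusted p = 0.0412). MIR208A, a heart muscle microRNA gene, read 2.75, 2.47 and 2.13, against 1.73, 1.68 and 1.65 (0.77 ± 0.21, adjusted p = 0.0499). These values lie near the low end of the array, and the count was 9 with the replicate block, which kept both, 0 without miR-107 replicate 2 or without miR-107-mut1 replicate 2 or 3, and 1 without replicate 1 of either group, which was neither of these genes in the fit without miR-107 replicate 1. Between the miR-107 and miR-107-mut2 IP arrays 0 microRNA genes were called by limma, beside 0.0271% of all genes, and 16 had an unadjusted p under 0.05.

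Probe sets of the genes that encode the transfected strands were tested against the mean of the other 8 transfections, for 8 genes in both fractions. For MIR103A1 and MIR103A2 the other transfections included miR-107 and its altered forms, and for MIR107 they included miR-103 and those forms. A probe set that detects such related strands alike would show a smaller difference, and this was not tested. Of the 16 tests, 1 passed: MIR15B was higher in miR-15b* lysates. Its probe set read 3.26, 4.66 and 4.02 there, against 3.33, 3.07 and 2.93 in negative control lysates, so the first array lay within the range of the controls. The difference from the other transfections was 0.70 ± 0.21 (adjusted p = 0.0447), and 0.87 ± 0.29 from the negative control alone (adjusted p = 0.0757). It was 0.36 without miR-15b* replicate 2 (adjusted p = 0.595), 0.68 without replicate 3 (adjusted p = 0.116), and 0.38 without the 3 lysate arrays that stood apart (adjusted p = 0.346). The other 15 differences, for MIR103A1, MIR103A2, MIR107, MIR16-1, MIR16-2, MIR195 and MIR320A in both fractions and MIR15B in the IP, lay between -0.12 and 0.27. In the IP, MIR15B, MIR16-2, MIR103A1, MIR103A2 and MIR16-1 averaged 1.64 to 1.95 with their own strands, near the lowest microRNA gene mean of 1.51. MIR107 in the miR-107 IP averaged 2.13 ± 0.43 (SD, n = 3), against 2.00 over the other groups. In the miR-107 lysates MIR107 averaged 6.25 ± 0.26, against 6.15. MIR320A averaged 6.04 ± 0.53 in the miR-320 IP, against 6.15 over the other groups. Against the negative control alone, MIR103A2 passed in the miR-103 lysates (0.57 ± 0.16, adjusted p = 0.0169), though not against the mean of the other groups (0.27 ± 0.12, adjusted p = 0.225). The 9 genes of the miR-15/107 group changed by a median of 0.23 with miR-103 and 0.13 with miR-107 in lysates, MIR103A2 with miR-103 being the only one called in the 8 lysate comparisons.

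Host genes and the microRNA genes inside them were compared for the 53 pairs in which a protein-coding host on the same strand was also on the array. MCM7, a subunit of the replicative helicase and the host of MIR25, MIR93 and MIR106B, fell in 7 of 8 lysate comparisons. It read 8.65, 8.75 and 8.74 in miR-103 lysates, against 10.73, 10.79 and 10.67 in negative control lysates (a log2 change of -2.01 ± 0.14, adjusted p = 2.06e-09). In miR-107 and miR-107-mut2 lysates it fell by 1.93 each, in miR-16 and miR-195 lysates by 1.16 and 1.31, and in miR-320 and miR-15b* lysates by 0.64 and 0.67. In miR-107-mut1 lysates it read 10.70, 10.83 and 10.68, within 0.01 of the control mean. The 3 microRNA genes within MCM7 changed by -0.31 to 0.33 over the 8 comparisons and none was called, although the -0.31 of MIR25 with miR-107 passed when only the compared arrays were fitted (adjusted p = 0.022). Without the 3 lysate arrays that stood apart, MIR25 was lower with miR-107 (adjusted p = 0.0289) and with miR-16 (-0.46, adjusted p = 0.00492).

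**Figure D4:**
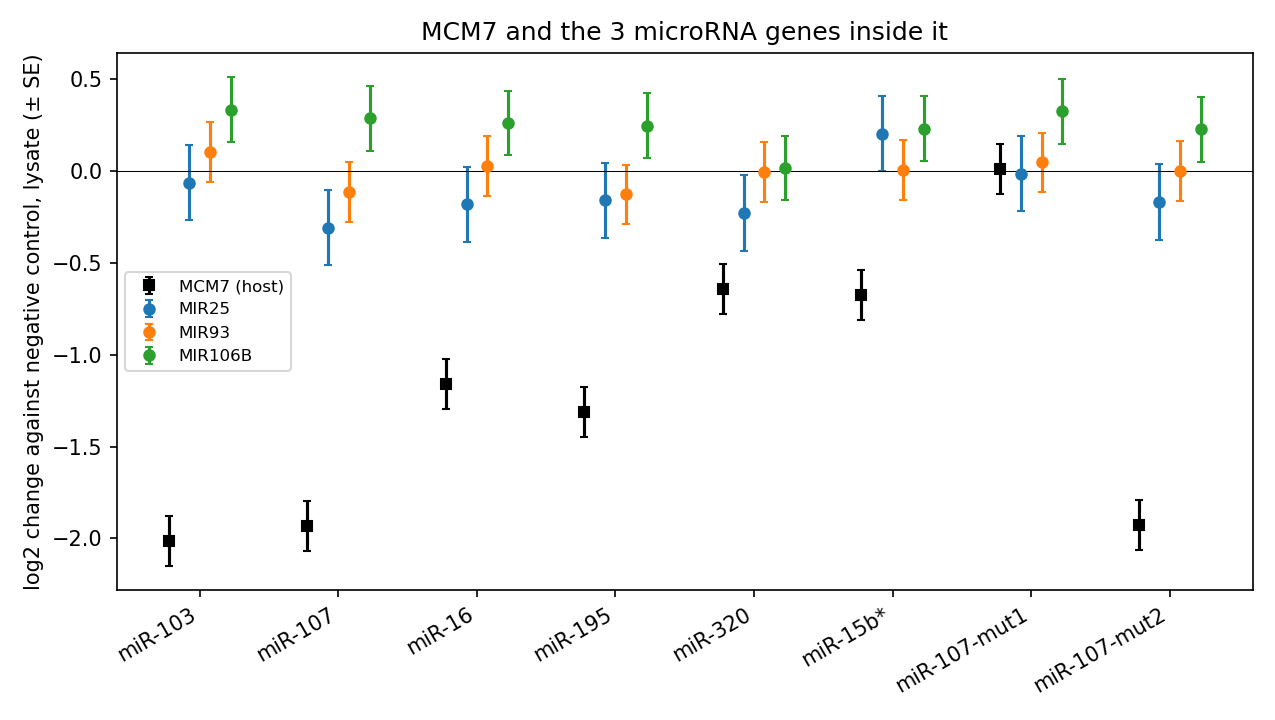
Log2 change against the negative control in lysates, with SE, for MCM7 (black squares) and the 3 microRNA genes within it (coloured circles), by transfection. MCM7 lies between -2.01 and -0.64 in all lysates other than miR-107-mut1, where it is at 0.01, while MIR25, MIR93 and MIR106B lie between -0.31 and 0.33 throughout.

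Other pairs also moved apart. SMC4, a condensin subunit and the host of MIR15B and MIR16-2, read 7.53, 5.32 and 7.37 in miR-16 lysates, against 8.60, 9.11 and 8.61 in negative control lysates. It fell by 2.03 ± 0.49 (adjusted p = 0.00662), where MIR15B changed by 0.20 and MIR16-2 by 0.02. Over all lysate arrays MIR15B and MIR16-2 averaged only 3.36 and 3.92, against 8.09 for SMC4 and 2.39 for the lowest microRNA gene. Without the second miR-16 array, which was the lowest, the SMC4 change was -1.32 ± 0.44 and did not pass (adjusted p = 0.0655). CTDSP1, which encodes a phosphatase, fell by 1.10 ± 0.14 with miR-107-mut2 while MIR26B within it rose by 0.45 ± 0.14. Its relative CTDSP2 fell by 0.43 ± 0.12 with miR-15b* while MIR26A2 rose by 0.53 ± 0.15. PANK2, a pantothenate kinase gene, fell by 0.37 ± 0.11 with miR-103 while MIR103A2 rose by 0.57 ± 0.16. For CTDSP1, CTDSP2 and PANK2, values are given for the comparison in which the microRNA gene was called. CTDSP1 fell further with miR-107 (-1.52) and miR-103 (-1.22), where MIR26B was not called. CTDSP2 fell further with miR-195 (-0.51), where MIR26A2 was not called. The 1 pair called in the same direction was WDR82 and MIRLET7G with miR-107, which rose by 0.44 ± 0.13 and 0.71 ± 0.21. Of 6 fits that each left out 1 compared array, the MIR26B call was lost in 5. The MIR26A2 and MIR103A2 calls were lost in 4 of 6 each, and the MIRLET7G call in 3. Over the 53 pairs, hosts were called lower in 12 pairs with miR-103 and with miR-195 and in 10 with miR-107 and with miR-16, and higher in 0 with miR-103, 2 with miR-107 and 1 each with miR-16 and miR-195. With miR-320, miR-15b*, miR-107-mut1 and miR-107-mut2 they were lower in 5, 4, 4 and 9 pairs. Of all genes, 7.8% were lower with miR-103, 5.7% with miR-195, 6.72% with miR-107, 6.17% with miR-16, 1.08% with miR-320, 3.62% with miR-15b*, 3.56% with miR-107-mut1 and 6.16% with miR-107-mut2. Hosts with several microRNA genes count once for each.

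The last comparison asked which microRNA genes gave more signal in the IP than in the lysate. The deposited IP values lay far below the lysate values for nearly all genes, by a median of 3.74 log2 units, so the fractions were first brought to 1 scale by cyclic loess over all 54 arrays. On that scale MIR182, MIR99B and MIR375 had the largest IP signal relative to lysate, and MIR24-2, MIR221 and MIR107 the smallest. Over the 9 transfections, 112 of 173 microRNA genes (64.7%) were higher in the IP, where 46.2% of all genes were, and 30 (17.3%) were lower, where 43.4% of all genes were. Both directions together made up 82.1% of microRNA genes and 89.6% of all genes. The median difference was 0.24 for microRNA genes and 0.04 for all genes. In the negative control cultures alone, 78 were higher and 10 lower, beside 36.3% and 34% of all genes (70.3% in either direction).

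The split depended on the scaling. As deposited, 2 microRNA genes were higher in the IP and 171 lower, with a median difference of -2.23 for microRNA genes and -3.74 for all genes. Only 5 of all 18417 genes had a higher deposited mean in the IP, and MIR182 and MIR99B were 2 of them. After quantile normalization of all 54 arrays together, 134 were higher and 15 lower.

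MIR182, of the miR-183 cluster known from sensory cells, had a deposited signal of 5.22 at the lowest, 6.15 at the median and 6.76 at the highest over 27 IP arrays, against 4.52, 4.89 and 5.36 over 27 lysate arrays. Its IP array was above its lysate array in all 27 cultures, by 0.70 to 1.79. On the common scale, in a fit that did not pair arrays by culture, the MIR182 difference was 5.25 ± 0.07. MIR99B, a relative of MIR100, read 5.43, 7.61 and 8.23 in the IP and 7.02, 7.26 and 7.60 in the lysate at the lowest, median and highest. Its common-scale difference was 4.75 ± 0.09. MIR375, known from pancreatic islets, read 5.64, 6.45 and 7.18 in the IP and 6.93, 7.25 and 7.83 in the lysate. Every culture had MIR375 lower in the IP as deposited, by 0.13 to 1.59, and its common-scale difference was 3.49 ± 0.08.

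The next genes on the common scale were MIR185 (3.17), MIR425 (3.13), MIRLET7F2 and MIR21 (2.83 each), MIR218-2 (2.73), MIR93 (2.60) and MIR130B (2.48). Of the neighbours of MIR182 in the miR-183 cluster, MIR96 was lower in the IP (-0.15) and MIR183 differed by 0.03, without passing. These neighbours gave low signal, with means of 1.87 and 2.00 in the IP and 4.25 and 4.29 in the lysate. The lowest microRNA gene mean in the IP was 1.51. Whether they differ from MIR182 in Argonaute binding cannot be told from values so near the low end. At the other end, MIR24-2 read 1.46, 1.82 and 2.82 in the IP, against 5.19, 6.52 and 7.44 in the lysate, and MIR221 read 1.57, 1.95 and 2.96, against 5.46, 6.28 and 7.45. Their common-scale differences were -1.22 ± 0.10 and -1.08 ± 0.10, so these members of the 2 clusters that rose in lysates lay near the low end of the IP arrays. MIR107 followed at -0.97 ± 0.08, then MIR186, MIR30E and MIR196A2 at -0.91 to -0.84.

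**Figure D5:**
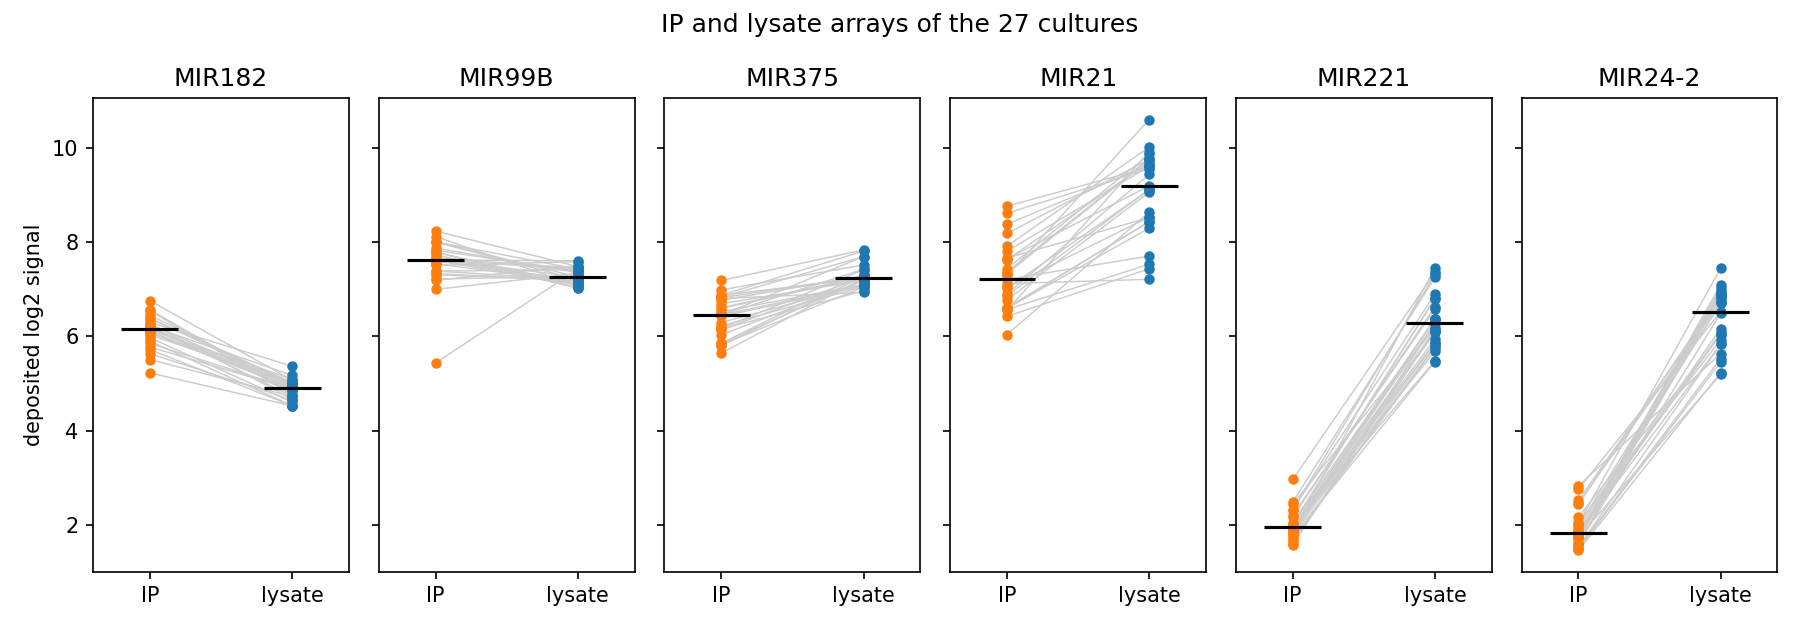
Deposited log2 signal of 6 microRNA genes on the IP array (orange, left) and the lysate array (blue, right) of each of 27 cultures, joined by lines, with the median as a black bar. MIR182 is above its lysate value in all 27 cultures, MIR99B has medians of 7.61 and 7.26, and MIR221 and MIR24-2 have IP medians of 1.95 and 1.82.

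By family, 8 of 10 let-7 genes were higher in the IP and 1 lower, with a median difference of 0.86, where 64.7% of the microRNA genes were higher and 17.3% lower, and 46.2% and 43.4% of all genes. Of the 9 genes of the miR-15/107 group, 1 was higher and 4 were lower, with a median of -0.12. Of 12 neural and glial microRNA genes, 10 were higher and 2 lower (median 0.55), and of 10 restricted to other tissues, such as muscle, heart, liver and islets, 8 were higher and 0 lower (median 0.33). That last group had a median signal of 1.85 in the IP and 3.82 in the lysate. Base composition went with the difference as well: hairpin GC content and the IP minus lysate difference had a rho of 0.397 over 155 genes, and the genes with at least 60% GC had a median difference of 1.68, against 0.17 in genes under 40%. Its part in the differences was not tested.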

How the data were processed

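The deposited table holds log2 values of 54 arrays (3 per group), made by the authors with Affymetrix Expression Console 1.1 and RMA (per the submitters' processing notes); the log base is not stated, and log2 was assumed from RMA's scale. The 2 fractions were read as normalized apart, from their different array means. Background probe values were not used here, so signal over background is unknown, and precision is limited by the number of arrays. Of 33297 probe sets, 19460 had 1 symbol, 1754 had several and 12083 had none. Symbols were updated through gene IDs for 19429, and the file's symbol was kept for 31. For the 769 genes with several probe sets, the 1 with the highest mean over all arrays was kept. The 32 probe sets that list a microRNA beside other symbols were left out.

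Each fraction was fitted apart over its 27 arrays with limma 3.58.1 (lmFit, eBayes), and p-values were Benjamini-Hochberg adjusted over 18417 genes. The fit was tested on simulated data. IP against lysate used cyclic loess over all arrays. Its main fit, which gave the counts and SEs, did not pair the IP and lysate arrays of a culture. A fit to the differences within cultures was an alternative. Same-numbered arrays share a code in the labels, so the blocked fit is given where it changes a count. The mean correlation of their deviations from the group mean was 0.265 (-0.20 to 0.69) for IP arrays. For lysate arrays it was 0.239 (-0.45 to 0.92). The means for other numbers, -0.132 and -0.108, are largely set by the centring of each group and are no separate evidence. The labels call the replicates biological. Named genes were those called in a comparison, the 10 most extreme by signal or IP against lysate, and the transfected strands' genes and families. The genes and lists were chosen with earlier results of these data known. Sequences and positions are RefSeq's (GRCh38.p14), and 164 of 173 genes matched its microRNA table. Alternatives were a low-signal filter, cyclic loess, a trended robust fit, the block, fewer arrays and other scalings.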

Additional observations from a re-analysis of the deposited data

Results flagged for a closer look

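In 4 cases all 3 arrays of a transfection lay below the negative control mean on IP arrays and above it on lysate arrays. With miR-16, MIR27A changed by -0.13 (IP) and 0.65 (lysate), and MIR196A2 by -0.051 and 0.46 with miR-195. With miR-107-mut2, MIR26B changed by -0.10 (IP) and 0.45 (lysate), and MIR7-3 by -0.052 and 0.48. The difference between the fractions was not tested in any of them, and the lysate changes passed the threshold while the IP changes did not. The cases were picked for these opposite directions, and no share over all genes was counted beside them. Of 6 fits that each left out 1 compared array, the lysate call was lost in 4 for MIR27A and for MIR196A2. It was lost in 5 for MIR26B and in 3 for MIR7-3.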

How the results depend on the processing

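Counts of called microRNA genes moved with the filter, the block and the choice of arrays. With the lowest 40% of genes left out, 6 (miR-103), 3 (miR-107), 3 (miR-16), 1 (miR-195), 0 (miR-15b*) and 2 (miR-107-mut2) were called in lysates against the control and 3 for miR-107 against miR-107-mut1 (IP 0), since most microRNA genes were then untested; the transfected strands' genes had 0 calls, and IP against lysate gave 35 higher and 1 lower (control 33 and 0). Fitting only the compared arrays gave 18 (miR-107), 1 (miR-16), 8 (miR-195), 0 (miR-15b*), 1 (miR-107-mut1) and 18 (miR-107-mut2) in lysates, and 3 (miR-103), 2 (miR-107) and 0 (miR-107 against miR-107-mut1) in the IP. The replicate block gave 30, 5 and 15 in the miR-103, miR-15b* and miR-107-mut2 lysates and 4, 14, 1, 1 and 9 in the miR-103, miR-107, miR-16, miR-195 and miR-107 against miR-107-mut1 IP. It changed no other count by over 1.5 times. Cyclic loess gave 0 for miR-107 against miR-107-mut1 in the IP, and the trended fit 1 for miR-107. Without the second miR-103 and miR-16 arrays, 4 (miR-103), 4 (miR-16, 1 of them lower), 5 (miR-15b*), 10 (miR-107), 6 (miR-195), 11 (miR-107-mut2) and 8 (miR-107 against miR-107-mut1) were called in lysates. Without these and the second miR-15b* array, the counts were 16 (miR-107), 6 (miR-16), 10 (miR-195), 3 (miR-107-mut1), 26 (miR-107-mut2), 1 (miR-103 and miR-107 against miR-16 and miR-195), 11 (miR-107 against miR-107-mut1), 1 (against miR-107-mut2) and 0 for the transfected strands' genes, and without the miR-15b* IP array that stood apart, 2 with miR-107 in the IP.

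Leaving out 1 array gave 2 to 19 calls with miR-103 in lysates (2 without miR-103 replicate 2, 5 and 6 without control replicates 2 and 3), 4 to 9 with miR-107 (4 without control replicate 2), 2 to 10 with miR-16 (3 without miR-16 replicate 2, 2 and 3 without control replicates 2 and 3), 1 to 3 with miR-195, 0 to 8 with miR-15b*, 2 to 7 with miR-107-mut2 and 2 to 6 for miR-107 against miR-107-mut1. In the IP it gave 0 to 1 with miR-103, miR-195 and miR-320, 0 to 2 with miR-107, 0 to 15 with miR-15b*, 0 to 2 for miR-107 against miR-107-mut1 (3 without the array that stood apart), and 0 to 1 for the transfected strands' genes. Counts with miR-195 and miR-15b* moved by over 1.5 times without any of the 6 arrays, and with miR-107-mut2 without its replicates 1 (5) and 2 (3) or control replicates 2 (5) and 3 (2).

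As deposited, IP against lysate gave 2 higher and 171 lower (control 2 and 169), and joint quantile normalization 15 lower. On deposited values MIR375 (-0.87), MIR185 (-1.24), MIR425 (-0.99), MIRLET7F2 (-0.86), MIR21 (-1.78), MIR218-2 (-1.14), MIR93 (-1.39) and MIR130B (-1.29) were lower in the IP, as nearly all genes are on that scale. Of 309 combinations of comparison and setting, 19 called a microRNA gene lower, 21 calls in all.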
